A study of Mus musculus with 5 samples.

Results

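The regions described here are the distal peaks of open chromatin that all 5 libraries of a mouse hindlimb muscle series hold in common. They were chosen by the peak calls, which are measured values: a peak of the wild-type (WT) E18.5 library is a member when it overlaps, by 1 base or more, a called peak in each of the other 4 libraries, and when its center lies over 10 kb from every gene row of the deposited feature table. Those gene rows span annotated transcript starts rather than whole gene bodies, so "distal" means far from an annotated start, and many members sit inside introns. Of 91265 WT E18.5 peaks, 31606 overlapped a peak in every other library, 50491 were distal, and 11646 (12.8% of all peaks) were both. The members were thus 36.8% of the shared peaks and 23.1% of the distal ones. That a peak was called in all 5 libraries follows from the choice and is no result.

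Nuclei came from pooled hindlimb muscles, without skin and bone, of C57bl6n mice, with 1 library in each group: WT at embryonic day E14.5 (56 hindlimbs), WT at E18.5 (14), WT at postnatal day P5 (8), WT adult of 2 months (4), and Cacna1s-/- at E18.5 (26), called KO below. Cacna1s encodes the voltage-sensing subunit of the L-type calcium channel of skeletal muscle. Each nucleus gave both RNA and accessible DNA (10x Multiome, single-nucleus RNA-seq joined with ATAC-seq, in which a transposase cuts open chromatin). PCM1 antibody staining was used to sort nuclei of fibers from the others before they were mixed, so the share of each class is set by the sort. Because no group has a second library, nothing was tested between groups: ratios below carry exact 95% binomial intervals that cover counting error only, and differences between litters, pools or preparations cannot be told apart from stage or genotype.

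Open chromatin far from a transcript start often marks an enhancer, an element that raises transcription of a gene at a distance, or an insulator site held by CTCF, the zinc finger protein that anchors chromatin loops. In muscle, MyoD and Myogenin bind E-boxes of the letters CAGCTG, MEF2 proteins bind an A and T rich site, and these factors together open enhancers of fiber genes. Promoters and CTCF sites tend to be open in many cell types, and enhancers in few.

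Counts were summed over myonuclei, the nuclei of muscle fibers, and over all other nuclei of each library. A nucleus was called myonuclear when Ttn, Neb, Trdn and Ryr1 together made up at least 1.5% of its UMIs (4% in the adult). The level of a region is given in CPM, its ATAC counts per 1000000 counts in all peaks of that library and class. A run of 5 levels is in the order E14.5, E18.5, P5, adult and KO. Myonuclei numbered 1809, 1563, 1764, 4388 and 981 in the same order, with 2852506 (KO) to 19074116 (adult) fragments in peaks; other nuclei numbered 720 (adult) to 3003 (E14.5). All 15 genes of the myonuclear marker list were detected in the WT myonuclei, at a summed 42578 to 125680 CPM of RNA against 1482 to 6650 in other WT nuclei. In the KO the same list stood at 59780 CPM in myonuclei and 3632 in other nuclei, and Cacna1s itself had 8 UMIs in KO myonuclei against 2371 in WT E18.5. The marker list includes Ttn, Neb, Trdn and Ryr1, so its contrast between the classes follows in part from how myonuclei were defined. Ttn alone made up 26716 of 65661 CPM in WT E18.5 myonuclei and 75074 of 125680 in adult myonuclei. The classes are not pure. Mesenchymal markers summed to 502, 1909.6, 2247, 203 and 759 CPM of RNA in myonuclei. The E14.5 library had 528 nuclei within 0.5 percentage points of the gate against 34 in the adult. Of 22009 distinct barcodes 291 occurred in 2 or more libraries, 17 to 47 for each pair. In the KO the kept nuclei held 58.6% of the library's ATAC counts, against 82.2% to 94.2% in the WT libraries.

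The sequences of 6 members carry the contrasts that follow, and each is the central 300 bases of its region on the plus strand of mm10 (RefSeq GRCm38.p6), with motif matches in capitals. Those nearest Acta1 and Des are shown as well covered regions of muscle structure genes, and the one nearest Gm45576 because it had the highest ratio of myonuclei over other nuclei among members with a MEF2 match. Those nearest Pacs2 and Cmc2 are shown for their change with stage, having the lowest ratios of their comparisons. The one nearest Cp was the most even member with a CTCF core. Windows run from chr8:123883110-123883409 (Acta1), chr1:75344524-75344823 (Des), chr8:47604496-47604795 (Gm45576), chr12:113028027-113028326 (Pacs2), chr8:116852106-116852405 (Cmc2) and chr3:19894678-19894977 (Cp).
Acta1: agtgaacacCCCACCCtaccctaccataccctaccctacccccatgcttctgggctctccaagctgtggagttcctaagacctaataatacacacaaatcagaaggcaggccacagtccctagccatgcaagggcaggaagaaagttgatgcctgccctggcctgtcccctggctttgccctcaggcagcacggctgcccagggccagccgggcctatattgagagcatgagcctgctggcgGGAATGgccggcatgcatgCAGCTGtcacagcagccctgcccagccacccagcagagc
Des: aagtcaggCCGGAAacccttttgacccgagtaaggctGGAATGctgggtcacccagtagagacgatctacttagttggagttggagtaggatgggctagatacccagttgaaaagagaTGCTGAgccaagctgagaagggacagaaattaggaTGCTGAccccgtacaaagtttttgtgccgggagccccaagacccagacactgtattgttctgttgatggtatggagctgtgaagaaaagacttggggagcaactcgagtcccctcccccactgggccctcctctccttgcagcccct
Gm45576: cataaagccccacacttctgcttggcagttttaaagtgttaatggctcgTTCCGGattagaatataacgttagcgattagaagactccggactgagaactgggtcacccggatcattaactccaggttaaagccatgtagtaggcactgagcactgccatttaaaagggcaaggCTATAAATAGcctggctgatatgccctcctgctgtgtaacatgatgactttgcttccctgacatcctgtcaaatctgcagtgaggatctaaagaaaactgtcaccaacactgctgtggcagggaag
Pacs2: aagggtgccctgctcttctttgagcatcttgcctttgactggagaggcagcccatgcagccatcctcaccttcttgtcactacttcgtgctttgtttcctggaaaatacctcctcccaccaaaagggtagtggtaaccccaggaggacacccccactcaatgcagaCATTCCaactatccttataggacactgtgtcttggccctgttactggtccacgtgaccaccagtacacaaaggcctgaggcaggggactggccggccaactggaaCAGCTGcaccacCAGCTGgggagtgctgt
Cmc2: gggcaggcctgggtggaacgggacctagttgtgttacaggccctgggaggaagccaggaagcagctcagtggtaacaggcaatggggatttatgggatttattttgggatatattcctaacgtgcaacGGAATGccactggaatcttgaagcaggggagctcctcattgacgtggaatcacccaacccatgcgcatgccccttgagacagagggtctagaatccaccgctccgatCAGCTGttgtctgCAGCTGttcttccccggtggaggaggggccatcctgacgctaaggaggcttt
Cp: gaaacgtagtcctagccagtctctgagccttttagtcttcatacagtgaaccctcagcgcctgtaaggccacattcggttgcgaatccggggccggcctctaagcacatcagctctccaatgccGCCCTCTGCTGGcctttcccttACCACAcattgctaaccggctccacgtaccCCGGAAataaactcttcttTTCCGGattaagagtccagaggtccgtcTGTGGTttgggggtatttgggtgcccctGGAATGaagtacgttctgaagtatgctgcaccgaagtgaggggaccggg
Capitals mark an E-box (CAGCTG), a TEAD match (GGAATG) and a KLF match (CCCACCC) in the Acta1 window, a TEAD match, an ETS match (CCGGAA) and 2 sets of large Maf letters (TGCTGA) in the Des window, and a MEF2 match at bases 175 to 184 and an ETS match in the Gm45576 window. The Pacs2 and Cmc2 windows each hold 2 E-boxes and 1 TEAD match. The Cp window holds a CTCF core at bases 125 to 136, on the minus strand and close to the center, besides 2 RUNX matches, 2 ETS matches and 1 TEAD match. A match on the minus strand shows the complementary letters. Bases are counted from 1 at the left end of each window, and a match is a run of letters, not a shown binding site.

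The center of a member lay at a median of 30.3 kb from the nearest gene row, and 1232 of them (10.6%) were over 100 kb away. By the GENCODE M21 annotation of the same build, 5025 members (43.1%) had their center in an intron, 691 (5.93%) in an exon and 5930 (50.9%) between genes. Shared peaks within 10 kb were more often exonic (37.97%). The label "distal" did not hold for every member, since 752 (6.46%) were within 1 kb of a transcript start that M21 lists and the feature table does not. At the 10 kb threshold the members just inside resembled the peaks just outside: the 857 members at 10 to 12 kb had a median of 9.28 CPM in E18.5 myonuclei and 8.59 in other nuclei, and the 904 shared peaks at 8 to 10 kb had 9.49 and 8.27.

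The members were spread over 7157 nearest genes, of which 4539 had a single member and 190 had 5 or more. The gene given beside a region is its nearest start, a name of position and not a shown target. The predicted gene 9430078K24Rik on chromosome 12 had the most, 14 members. Chd7, a chromatin remodeler, and Lrig1, a regulator of growth factor receptors, each had 9, and 5 of those near Lrig1 were higher in myonuclei in every library. Col1a1, which encodes the main collagen chain of connective tissue, had 8 members, of which 6 were higher in other nuclei in every library. Over all members measured in all 5 libraries, 10.3% were higher in myonuclei and 6.79% in other nuclei throughout. None of the 10 members near Tex14 or the 9 near Klhl29 was either.

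Members held 14.1%, 13.6%, 15.0%, 11.6% and 15.5% of the fragments in peaks of myonuclei. In other nuclei their shares were 13.5%, 12.1%, 13.8%, 11.8% and 13.8%. The adult was thus the lowest library in both classes. Peaks were called in each library separately, and the overlapping peaks covered 10.3 to 10.5 Mb in each. They were 17.8%, 12.8%, 17.4%, 14.4% and 18.8% of the library's peaks. The part of the differing peak lists in the shares of fragments was not tested. Members were weaker than shared peaks near starts: the median member stood at 8.39 CPM in E18.5 myonuclei against 20.4 for shared peaks within 10 kb, and at 5.98 against 17.8 in adult myonuclei.

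Members differed between the 2 classes of nuclei in every library. At E18.5, 2551 of 11639 members with at least 20 fragments were at least 2-fold higher in myonuclei, with an interval leaving out 1, and 1579 were at least 2-fold lower, or 21.9% and 13.6%. Over all shared peaks the same counts were 14.2% and 8.87%. At E14.5, 2028 members were higher and 1930 lower (all shared peaks 11.0% and 11.8%), and at P5 2527 and 1809 (all shared peaks 14.6% and 11.3%). The adult had 2469 higher and 3062 lower members (all shared peaks 14.4% and 20.5%), and the KO 2224 and 1835 of 11496 (all shared peaks 12.3% and 11.7%). In every library and direction the members' share was above that of all shared peaks. The balance between the directions was less firm. With at least 100 fragments required, the adult had 2195 higher and 1389 lower members, and with a 4% gate in every library the E14.5 counts fell to 407 higher and 57 lower.

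**Figure D1:**
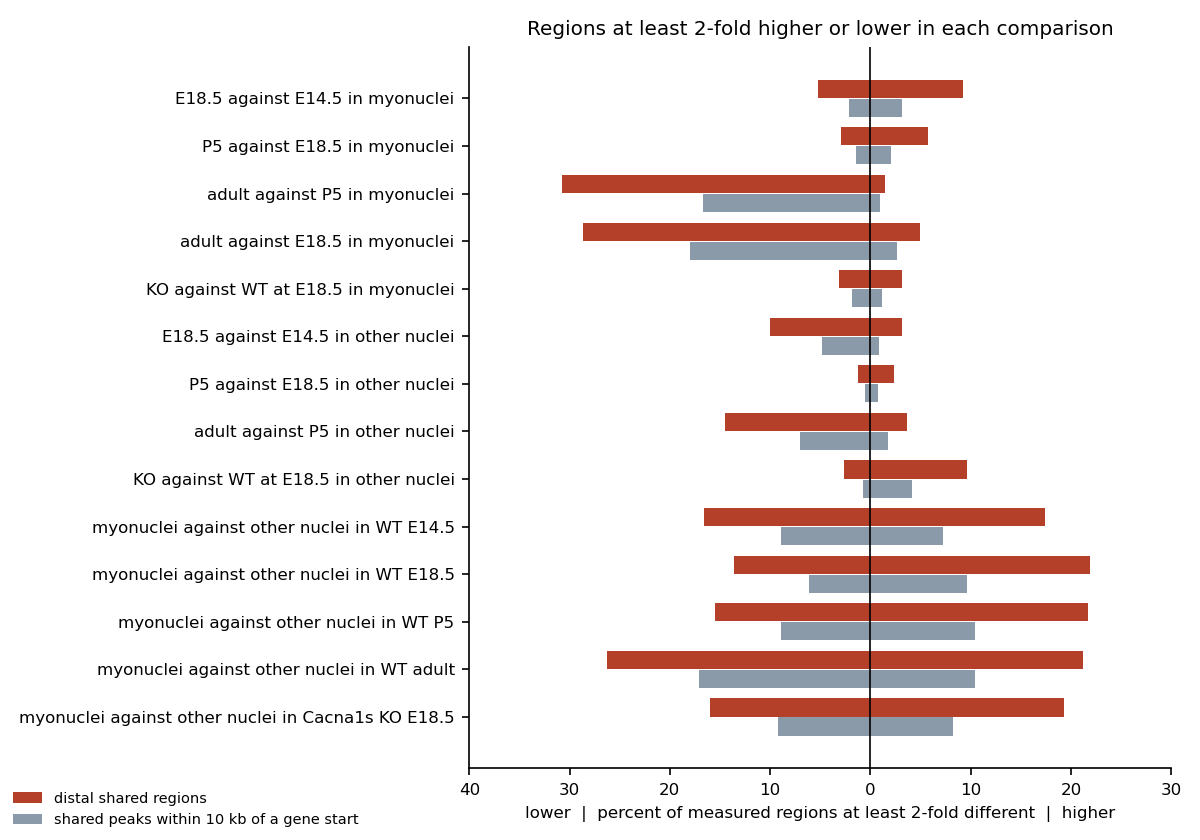
Percent of distal shared regions (red) and of shared peaks within 10 kb of a gene start (gray) that were at least 2-fold higher (right of 0) or lower (left of 0) in each of 14 comparisons, 1 library a group. The red bars are longer than the gray ones in every comparison and direction, and the longest is the 30.7% of distal regions lower in adult than in P5 myonuclei.

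Of 11485 members measured in all 5 libraries, 1182 (10.3%) were higher in myonuclei in every one and 780 (6.79%) were higher in other nuclei in every one. Another 4121 (35.9%) passed 2-fold in none, and 429 (3.74%) passed it in opposite directions in different libraries. Over 31361 shared peaks measured in all 5 libraries the same shares were 6.64%, 4.19%, 52.6% and 2.19%. Members higher in myonuclei throughout were more often intronic than those higher in other nuclei, 57.2% against 34.2%. Of the latter, 62.2% lay between genes and 17.3% were over 100 kb from a start, against 11.8% of the former.

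Regions by genes of the contractile apparatus were mostly higher in myonuclei. The muscle structure list had 42 members near 21 of its 56 genes, of which 25 were higher in myonuclei at E18.5 and 3 lower, with a median log2 ratio of 1.70 against 0.00 over all members. The region nearest Des, the intermediate filament protein of muscle, lay 15.65 kb away between genes at chr1:75344265-75345084. In myonuclei it stood at 78.1, 65.7, 65.6, 62.5 and 88.7 CPM, and in other nuclei at 22.5, 12.5, 12.8, 11.8 and 25.3. Myonuclei were above other nuclei in every library, 5.27-fold (4.35 to 6.43) at E18.5, and changed little over the WT stages. Acta1 encodes skeletal actin. Its region, 11.5 kb from the start in an intron of Gm20388 (chr8:123882858-123883662), stood at 48.2, 65.4, 78.1, 54.3 and 66.4 CPM in myonuclei and at 9.24, 6.57, 4.02, 2.38 and 13.4 in other nuclei. The ratio at E18.5 was 9.95 (7.75 to 12.9). All 5 members near Myl1, a myosin light chain gene of fast fibers, were 7.86-fold to 15.9-fold higher in myonuclei, and the 3 near Ttn, the giant spring protein of the sarcomere, were 8.07-fold to 14.4-fold higher. Ttn RNA was also used to define myonuclei, so the Ttn regions are not independent of that choice. The other 3 with a call went the other way: 1 of 2 near Sgcd (ratio 0.244), the 1 near Dmd (0.296) and 1 of 2 near Mylk4 (0.499).

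The calcium release machinery and the factors of myogenesis had the same lean at E18.5. Of 19 members near excitation-contraction coupling genes, 12 were higher in myonuclei at E18.5 and none lower (median log2 1.60), and 10 of 19 in the adult. The higher ones at E18.5 include a region near Trdn (6.63-fold), whose RNA was also used to define myonuclei. Srl, which encodes sarcalumenin of the sarcoplasmic reticulum, had 4 members that differed among themselves. The one at chr16:4512409-4513305 stood at 36.7, 43.9, 51.9, 59.4 and 57.1 CPM in myonuclei and 20.7, 14.52, 12.4, 14.4 and 25.02 in other nuclei. The one 47.9 kb away at chr16:4474737-4475621 stood at 35.01, 35.1, 44.2, 35.2 and 34.9 CPM in myonuclei and 41.9, 39.3, 51.9, 56.3 and 44.7 in other nuclei. The E18.5 ratios of the 4 Srl members were 3.31, 3.02, 1.19 and 0.892. Of 57 members near myogenic factors and fusion genes, 27 were higher and 4 lower (median log2 0.72). They included 1 near Tead4 at 13.8-fold, 5 of 6 near Sox6 at 2.08-fold to 9.10-fold, and both near Myf6 at 7.90-fold and 4.77-fold. The lean of the myogenic list varied by library. Its counts higher and lower were 16 and 8 at E14.5, 26 and 2 at P5, 27 and 5 in the adult and 21 and 7 in the KO. The median log2 ratios were 0.13, 0.80, 0.86 and 0.35 in that order, and 13 of the 57 were higher in all 5 libraries.

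Regions near junction and metabolic genes were mixed. Of 17 near neuromuscular and myotendinous junction genes, 6 were higher and 2 lower, and Col13a1, a membrane collagen of the neuromuscular junction, had members on both sides. Its region at chr10:61965103-61966035 was at 39.4 CPM in E18.5 myonuclei and 6.25 in other nuclei, a ratio of 6.30 (4.82 to 8.33), and its region at chr10:61920008-61920860 at 7.37 and 19.4 CPM. In all, 5 of 13 members near metabolic genes were higher and 2 lower, both of these near Ppp1r3a. Among the higher ones was the region 18.2 kb from Ldha, lactate dehydrogenase (chr7:46827213-46828098), at 17.4, 25.1, 33.8, 55.3 and 16.3 CPM in myonuclei and at 5.61, 3.58, 2.80, 5.61 and 2.56 in other nuclei. Ppp1r3a, which targets a phosphatase to muscle glycogen, had a member 345.29 kb away that was among the 10 with the lowest ratios, at 2.46 CPM in E18.5 myonuclei against 22.2 in other nuclei (ratio 0.111, 0.0645 to 0.179). Its other members had ratios of 0.326 at 250.9 kb and 5.86 at 171.25 kb.

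Genes of mesenchyme and matrix showed the reverse. Of 68 members near 23 such genes, 30 were higher in other nuclei at E18.5 and 4 in myonuclei, with a median log2 ratio of -0.91. The region 63.2 kb from Col1a1 (chr11:94872619-94873499) stood at 34.8, 61.6, 72.5, 45.9 and 53.3 CPM in other nuclei, and in myonuclei at 5.16, 12.1, 12.4, 2.41 and 7.89. The Col1a1 RNA of the myonuclei, 25.2, 480.5, 378, 3.81 and 95.7 CPM, was also highest at E18.5 and P5 and lowest in the adult. The part of stray mesenchymal nuclei or RNA in that was not tested. Twist1, a factor of limb mesenchyme, had 1 member at a ratio of 0.150. The 4 members higher in myonuclei were nearest Col1a2 (10.4-fold), Tcf4 (6.47-fold) and Dpt (3.75-fold and 3.56-fold). Of 11 members near limb patterning genes 3 were higher and 2 lower, and both lower ones were nearest Tbx4, a hindlimb factor. Members near vessel, immune and nerve support genes were split 4 to 4 of 22, and those near housekeeping genes 0 to 2 of 8. Over all members 21.9% were higher and 13.6% lower at E18.5, and the limb patterning and vessel counts lay near these shares.

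**Figure D2:**
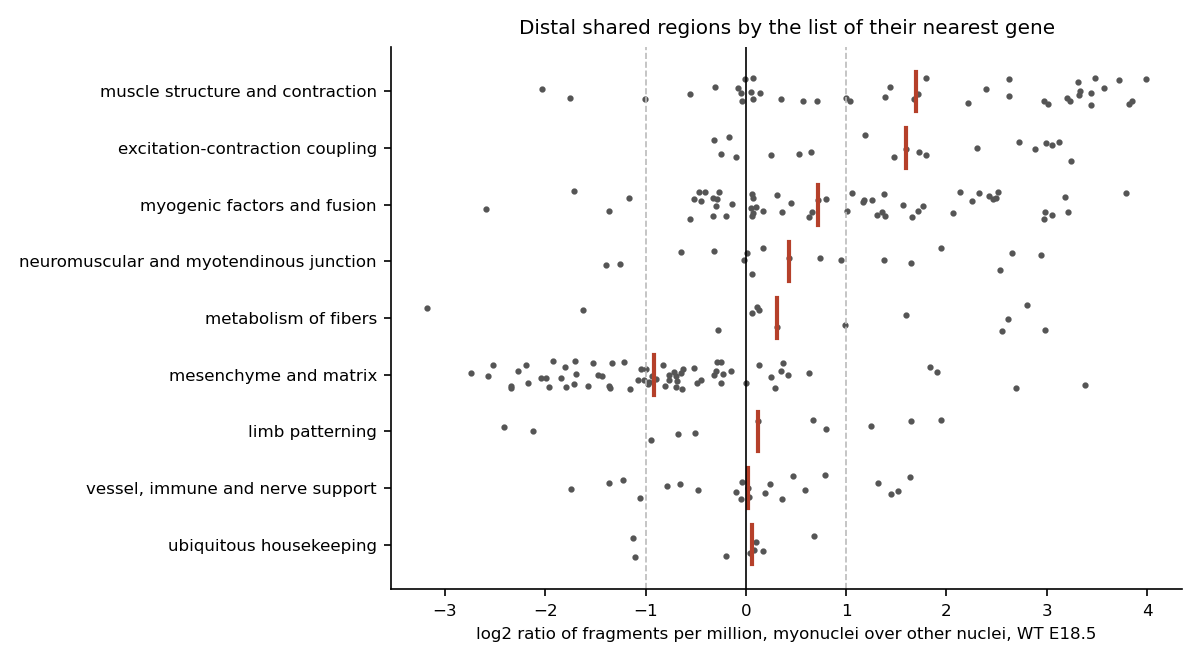
Each gray point is a distal shared region placed by the list of its nearest gene (rows) and by its log2 ratio of CPM in myonuclei over other nuclei at WT E18.5 (horizontal axis), with red bars at the medians and dashed lines at 2-fold. Muscle structure (median 1.70) and excitation-contraction coupling (1.60) lie right of 0 and mesenchyme and matrix (-0.91) lies left.

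The members with the most extreme ratios were mostly not near listed genes. The highest, 45.2-fold (16.2 to 190), was in an intron of Ros1 and nearest Vgll2, a TEAD cofactor of skeletal muscle (chr10:52047978-52048829), at 11.1, 14.54, 15.2, 23.4 and 9.29 CPM in myonuclei and 0.9502, 0.322, 0.437, 1.40 and 0.854 in other nuclei. Only 3.5 fragments (7 counts) lay behind its E18.5 level in other nuclei, so the upper bound is wide. A region nearest Gm45576 (chr8:47604200-47605092) followed with 11.8, 16.1, 25.9, 30.9 and 25.4 CPM in myonuclei and 2.51, 0.597, 1.31, 1.68 and 3.17 in other nuclei, 27.0-fold (12.4 to 71.4) at E18.5. It is the member whose printed window holds the MEF2 match. At the other end, a region in an intron of Agbl4, nearest Bend5, stood at 0.375, 1.91, 2.42, 0.655 and 2.45 CPM in myonuclei and 9.50, 16.4, 10.8, 7.29 and 10.0 in other nuclei. These ratios ranked the regions, so they are given as a description.

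**Figure D3:**
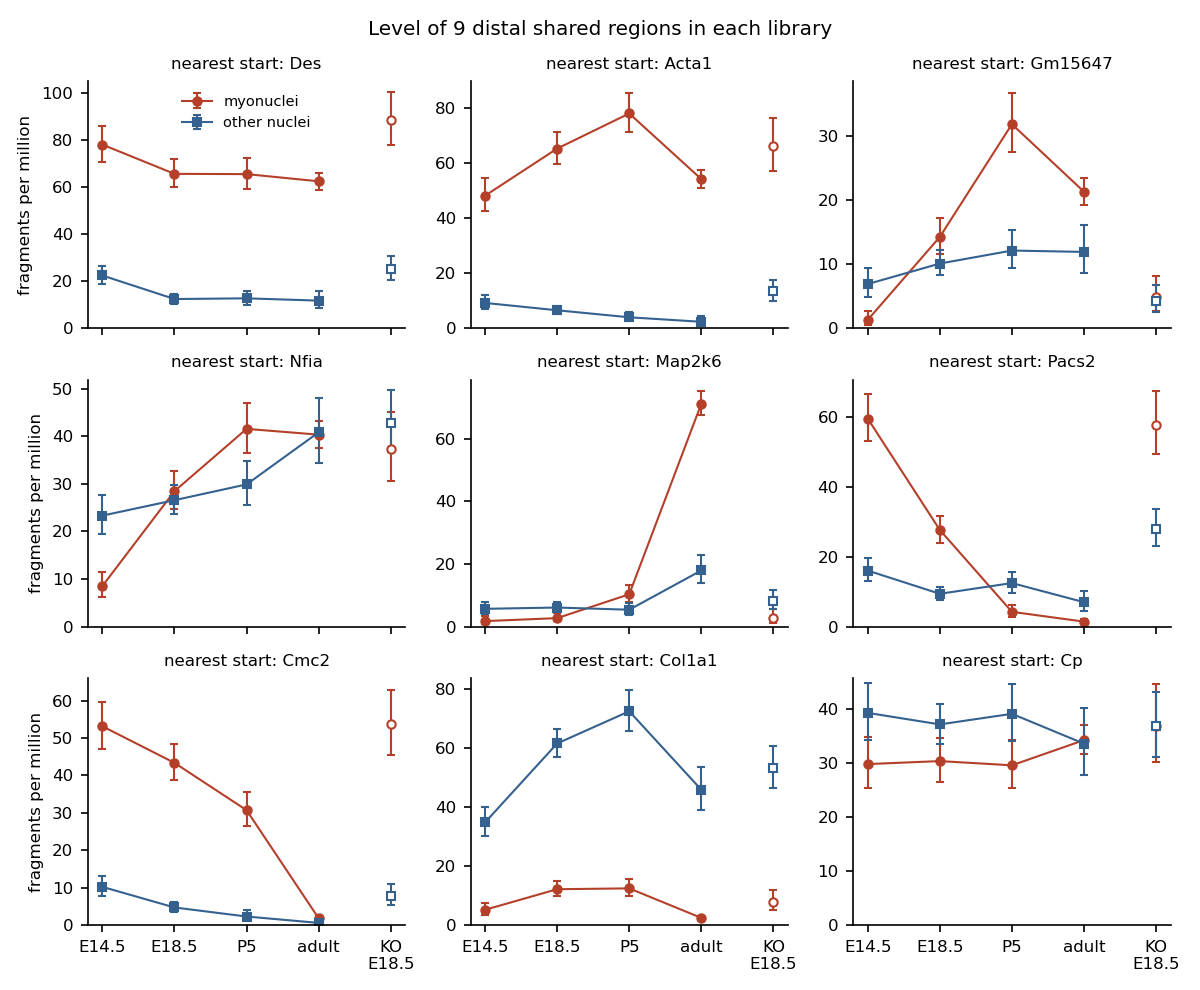
Level of 9 distal shared regions in CPM (vertical axes, each with its own scale) in myonuclei (red) and other nuclei (blue) of each library, with 95% Poisson intervals for counting error as bars. Filled symbols joined by lines are WT libraries and open symbols the KO. Des and Acta1 stay high in myonuclei, Map2k6 rises with stage, Gm15647 rises up to P5, Pacs2 and Cmc2 fall, and Cp stays between 29.5 and 39.2 in all 10 sums.

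Motif content differed between these groups. Letters were searched on both strands in the central 300 bases of the 11637 members with sequence on the assembly. The E-box CAGCTG was in 56.6% of members higher in myonuclei in all 5 libraries, 37.2% of those higher in other nuclei, 35.3% of all members and 32.0% of all WT E18.5 peaks. A MEF2 match was in 7.87%, 0.256%, 1.94% and 1.38% of the same groups. MEF3 (TCAGGTT) was in 6.18%, 2.44%, 4.67% and 4.03%. The KLF letters CCCACCC had the opposite order, in 12.1% of the myonuclear and 18.3% of the other group. AP-1 (TGANTCA), TEAD (GGAATG), RUNX (TGTGGT), the large Maf letters (TGCTGA) and ETS (CCGGAA) were closer, at 14.47% against 15.8%, 24.1% against 21.8%, 20.8% against 19.4%, 32.7% against 29.6% and 3.81% against 3.85% of the myonuclear and the other group, and a full NFI site was in 0.931% and 0.769%. The letters TGCTGA and TGANTCA can share the letters TGA, so some windows count for both.

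**Figure D4:**
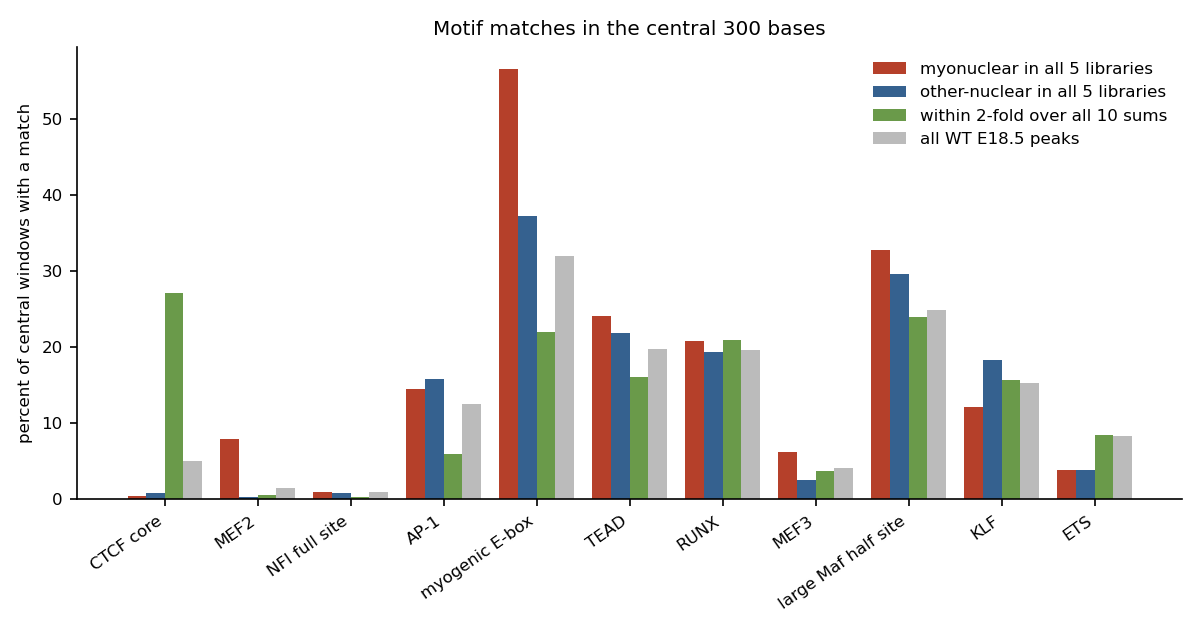
Percent of central 300-base windows that hold each motif (vertical axis), in members higher in myonuclei in all 5 libraries (red, 1182), higher in other nuclei in all 5 (blue, 780), within 2-fold over all 10 sums (green, 994) and all WT E18.5 peaks (gray). The E-box is in 56.6% of the red group, the CTCF core in 27.1% of the green group, and MEF2 in 7.87% of the red group.

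Few members were even across stage, genotype and class. Of 6735 members with at least 20 fragments in every library, 2818 (41.8%) stayed within 2-fold over the 5 myonuclear sums, against 61.4% of all shared peaks, and in other nuclei 4054 of 6532 (62.1%) did, against 76.1%. With the adult left out, 65.9% of the members stayed within 2-fold in myonuclei. Over all 10 sums 994 of 4094 members (24.3%) were even, against 56.7% of shared peaks within 10 kb. No interval entered this measure, so counting error alone can carry a weak region past 2-fold. The median member was weaker than the median shared peak within 10 kb, 8.39 against 20.4 CPM in E18.5 myonuclei. The part of depth in these gaps was not tested. The 8 most even included a region nearest Pum2, an RNA-binding repressor (chr12:8640515-8641445), at 55.1 to 62.8 CPM in myonuclei and 58.4 to 66.9 in other nuclei, and one 43.5 kb from Chd7 (chr4:8646974-8647887) at 80.2 to 104 and 84.1 to 96.5 CPM.

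The CTCF core was more frequent in the even members, though 725 of the 994 lacked it. It was in 27.1% of the 994 even members, 13.9% of all members, 5.59% of shared peaks within 10 kb, 2.95% of distal peaks not shared and 4.97% of all peaks. In the groups higher in myonuclei or in other nuclei throughout it was in 0.423% and 0.769%. Even members came only from the 4094 members with at least 20 fragments in all 10 sums. The share of those 4094 that held the core was not counted. Among the 1617 members with the core, 2.72% were higher in myonuclei at E18.5 and 3.53% in other nuclei, against 25.02% and 15.2% of the 10020 without it. The even members also had more CpG pairs per window, 9.65 against 6.27 over all members and 20.2 in shared peaks within 10 kb, and 11.7% of them lay within 1 kb of an M21 start. The region nearest Cp, ceruloplasmin, a copper carrier (chr3:19894395-19895262), stood at 29.8, 30.3, 29.5, 34.2 and 36.8 CPM in myonuclei and 39.2, 37.1, 39.0, 33.5 and 36.7 in other nuclei, a spread of 1.33-fold.

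**Figure D5:**
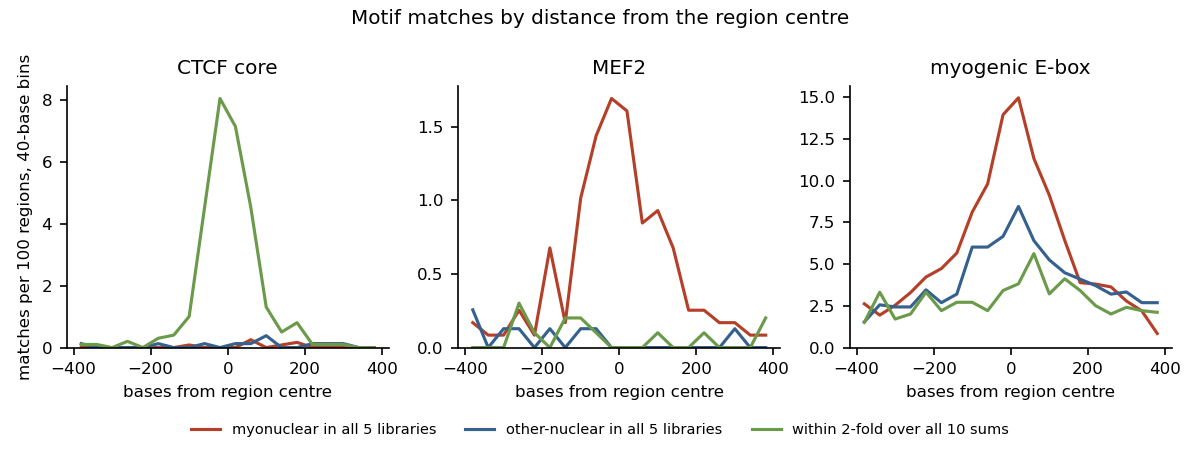
Motif matches per 100 regions in 40-base bins (vertical axes) against distance from the region's center in bases (horizontal axes), for the CTCF core, MEF2 and the myogenic E-box, in members higher in myonuclei in all 5 libraries (red), higher in other nuclei in all 5 (blue) and within 2-fold over all 10 sums (green). CTCF peaks at the center of the green group at about 8.05 matches, MEF2 and the E-box at the center of the red group at about 1.69 and 15.0. The E-box also peaks at the center of the blue group, at about 8.46.

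Between E14.5 and E18.5, 1063 of 11567 members rose at least 2-fold in myonuclei and 604 fell (9.19% and 5.22%, against 5.35% and 3.25% of all shared peaks). With a 4% gate in both libraries, 267 rose and 374 fell, so this balance turned with the gate. An intronic region of Nfia, a nuclear factor I gene (chr4:97868621-97869529), rose 3.33-fold (2.41 to 4.70), from 8.54 to 28.5 CPM, and its RNA in myonuclei stood at 470 and 950 CPM. In other nuclei the Nfia region was at 23.3 and 26.6 CPM. The Srl region at chr16:4488861-4489775 stood at 10.6, 24.1, 47.2, 45.5 and 33.1 CPM in myonuclei. Among falls, the region 47.5 kb from Mitf was at 23.7 and 5.05 CPM (ratio 0.214, 0.144 to 0.310) and the one 22.8 kb from Dll1, a Notch ligand, at 25.5 and 6.14 (0.241, 0.168 to 0.339). Members that rose held the CTCF core in 0.470% and AP-1 in 19.8%, and those that fell in 12.9% and 8.62%. Over all members the shares were 13.9% and 11.8%, so the CTCF share of the falling members lay near that of all members. Of the 68 members near mesenchyme and matrix genes 15 rose, beside the rise of mesenchymal marker RNA in myonuclei from 502 to 1909.6 CPM, whose part in this was not tested.

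In other nuclei 360 members rose and 1159 fell over the same interval, 3.10% and 9.98% of 11612 (all shared peaks 1.71% and 6.74%). Scaling to shared peaks alone, which moved the median log2 ratio of all shared peaks by 0.16, gave 537 and 776, and a minimum of 100 fragments gave 342 and 367. Of the 1159 falls, 13 were among 40 members near muscle structure genes and 13 among 57 near myogenic genes. The summed myonuclear markers of these nuclei fell from 3331 to 2304 CPM of RNA while mesenchymal markers rose from 3428 to 8854, so a change of cell mix and a change within cells cannot be told apart.

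From E18.5 to P5, of 11624 members in myonuclei 663 rose and 336 fell (5.70% and 2.89%, against 3.38% and 1.95% of all shared peaks), and with scaling to shared peaks 478 rose and 457 fell. In other nuclei 266 rose and 142 fell of 11514 (all shared peaks 1.32% and 0.818%), or 165 and 216 with that scaling. The falling members in myonuclei differed in sequence from those that rose: 67.9% against 26.4% held the E-box and 1.19% against 11.9% the CTCF core. Members higher in myonuclei than in other nuclei at E18.5 were closer to the falling ones, at 58.2% and 1.72%. Over all members the shares were 35.3% and 13.9%. A region in an intron of Pacs2, a sorting protein (chr12:113027850-113028505), was at 59.6, 27.7, 4.25, 1.44 and 57.8 CPM in myonuclei, a P5 to E18.5 ratio of 0.154 (0.0975 to 0.232). Other nuclei had 16.1, 9.42, 12.5, 7.01 and 28.1 CPM there. The KO value lay beside the E14.5 value rather than the E18.5 value. An intronic region of Pepd, a dipeptidase (chr7:34972726-34973599), ran 49.3, 19.6, 3.42, 1.28 and 34.4 CPM. Pacs2 RNA in myonuclei stood at 97.0, 102, 37.1, 27.2 and 111 CPM, and Pepd RNA at 53.4, 24.6, 27.4, 30.4 and 35.7. The region 187.8 kb from Chd7 (chr4:8938814-8939734) fell and came back, at 44.7, 51.2, 10.6, 55.9 and 83.8 CPM, with a P5 to E18.5 ratio of 0.207 (0.156 to 0.271) and an adult to P5 ratio of 5.28 (4.10 to 6.91).

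Adult myonuclei had lower levels at many members. Of 11633 members, 3574 (30.7%) fell at least 2-fold from P5 to the adult and 169 (1.45%) rose, against 21.8% and 1.14% of all shared peaks. Against E18.5, 3339 of 11639 fell and 578 rose (all shared peaks 21.9% and 3.49%). The median member fell by 0.59 on the log2 scale from P5 and the median shared peak near a start by 0.22. With scaling to shared peaks the median log2 ratio of all shared peaks moved by 0.17, from -0.33 to -0.16. The size of the general fall thus depended on scaling. With at least 100 fragments 1700 of 8764 members (19.4%) fell. Members with the CTCF core fell less often, 13.9% against 33.3% of those without. Of the 68 near mesenchyme and matrix genes 33 fell (median log2 -0.94), beside a drop of mesenchymal marker RNA in myonuclei from 2247 to 203 CPM, whose part was not tested. Of 42 near muscle structure genes 6 fell and none rose, and of 57 near myogenic factors 14 fell and 2 rose.

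Single regions had low levels in the adult. One 69.1 kb from Cmc2, a mitochondrial assembly factor (chr8:116851807-116852705), stood at 53.1, 43.3, 30.7, 1.78 and 53.6 CPM in myonuclei and 10.2, 4.69, 2.27, 0.561 and 7.81 in other nuclei, an adult to P5 ratio of 0.0581 (0.0390 to 0.0841). Cmc2 RNA did not follow, at 7.27 CPM at P5 and 11.3 in the adult. In an intron of Tll2, a tolloid-like protease (chr19:41160193-41161041), the levels were 62.1, 30.1, 16.4, 1.34 and 32.4 CPM, with RNA at 68.6, 11.7, 1.53, 0.203 and 5.76. In an intron of Adam12, a protease of fusing muscle cells (chr7:134207681-134208587), they were 30.97, 23.4, 18.7, 1.42 and 36.8 CPM, with RNA at 117, 80.4, 83.6, 2.54 and 131. The adult was lowest for both region and RNA in Tll2 and Adam12.

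Among members with at least 100 fragments the largest rise in the adult was 6.89-fold, with an interval of 5.34 to 9.03. That region lay in an intron of Map2k6, the kinase above p38 (chr11:110448772-110449549), at 1.78, 2.73, 10.3, 71.2 and 2.80 CPM in myonuclei and 5.70, 6.11, 5.42, 17.96 and 8.30 in other nuclei. Map2k6 RNA of the myonuclei stood at 15.6, 33.6, 74.1, 399.96 and 22.5 CPM. Region and RNA were both highest in the adult. A region 20.2 kb from Mettl21e (chr1:44198349-44199214) was at 3.38, 4.91, 8.76, 52.0 and 5.26 CPM, and one in an intron of Rilpl1, nearest Snrnp35 (chr5:124506515-124507372), at 10.5, 21.8, 19.8, 97.6 and 31.03.

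In other nuclei 1590 of 10929 members fell from P5 to the adult and 400 rose (14.55% and 3.66%, against 9.72% and 2.45% of all shared peaks). The adult class rests on 720 nuclei with a median of 1229.5 UMIs. The myonuclear marker list summed to 6650 CPM of RNA there against 1482 at P5. Mesenchymal markers stood at 3482 and 11381 and adipocyte markers at 2136 and 178. The part of this mix in the falls was not tested.

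Between KO and WT at E18.5 the counts in myonuclei were near even on the main scaling. Of 11509 members 366 were higher and 364 lower in the KO than in WT E18.5 (3.18% and 3.16%, against 1.92% and 2.35% of all shared peaks). The balance depended on scaling, on depth and on the gate: scaling to shared peaks gave 243 and 501, scaling to shared peaks within 1 kb of starts 280 and 444, a minimum of 100 fragments 172 and 50, and a 4% gate 584 and 224. Of the 68 members near mesenchyme and matrix genes 11 were lower and 1 higher, beside 759 CPM of mesenchymal marker RNA in KO myonuclei against 1909.6 in WT, whose part was not tested. Of the 57 near myogenic factors 5 were higher and none lower. Of members that fell from P5 to the adult, on the main scaling, 172 of 3502 (4.91%) were higher in the KO and 168 (4.80%) lower, against 2.39% each of the 7831 members that did neither. The KO and WT E18.5 libraries are not among those that define that fall.

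Of the 8 members with the lowest P5 to E18.5 ratios in myonuclei, 4 had a KO to WT interval above 1 and 4 an interval that held 1. Those above 1 were the Pacs2, Pepd, Chd7 and Gm48155 regions, at 2.09-fold (1.69 to 2.58), 1.75-fold (1.34 to 2.28), 1.64-fold (1.39 to 1.93) and 1.70-fold (1.21 to 2.37). The regions nearest Adamts5, Gm32296, Gm33251 and Tekt5 had ratios of 1.22 (0.853 to 1.72), 1.16 (0.925 to 1.45), 1.13 (0.809 to 1.56) and 0.933 (0.762 to 1.14). An interval above 1 is a looser rule than the 2-fold call used elsewhere, which among these regions only the Pacs2 region passed. The share of all members with such an interval was not counted, so the 4 have no background beside them. The KO to WT and P5 to E18.5 comparisons share the WT E18.5 library. Among lower members, the region in an exon of Tmem144 was at 12.5 CPM in WT and 3.86 in KO (ratio 0.309, 0.149 to 0.579), with Tmem144 RNA at 10.7 and 2.65. An intronic region of Bicc1, nearest Gm15647 (chr10:71058471-71059358), stood at 1.31, 14.3, 31.9, 21.3 and 4.91 CPM, so the KO lay between E14.5 and E18.5. An intronic region of Myo16 was at 13.7 and 4.73 CPM with RNA at 192 and 195.

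In other nuclei the counts leaned toward the KO. There 1110 of 11538 members were higher in the KO and 299 lower (9.62% and 2.59%, against 6.16% and 1.44% of all shared peaks). Scaling to shared peaks, which moved the median by 0.17 on the log2 scale, gave 712 and 479. The lists of muscle genes differed: 13 of 40 near muscle structure genes and 16 of 56 near myogenic factors were higher, with 1 and none lower. Near excitation-contraction coupling genes 2 of 19 were higher, near junction genes 1 of 17 and near metabolic genes 2 of 13. Of these only the metabolic list had lower members, 2 of 13. In the order given the median log2 ratios were 0.58, 0.56, 0.42, 0.30 and 0.24, against 0.19 over all members. The Des and Acta1 regions were 2.03-fold (1.55 to 2.64) and 2.04-fold (1.41 to 2.94) higher. In the same nuclei myonuclear marker RNA was 3632 CPM in the KO against 2304 in WT, markers of muscle stem cells and myoblasts 601 against 355, and mesenchymal markers 4151 against 8854. Adipocyte markers stood at 532 against 44.0. A shift in the mix of nuclei and a change within them cannot be told apart here.

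RNA of the nearest gene moved with the members only in part. Of the 3574 members that fell from P5 to the adult, 1908 had a nearest gene with at least 20 UMIs, and that gene was at least 2-fold lower for 54.8% of them, against 40.0% over all members. For members that rose from E14.5 to E18.5 the gene was higher in 31.03%, against 18.9%. Members that fell from E18.5 to P5 had a lower gene in 28.2%, against 16.9%. For those higher in KO myonuclei it was higher in 16.8%, against 7.53%, and for those lower in KO it was lower in 11.6%, against 5.85%. In all these groups most genes did not pass 2-fold in the member's direction except for the adult fall. At E18.5 the gene near a member higher in myonuclei was itself higher in myonuclei in 33.2%, against 18.2% over all members. A gene can be nearest to several members, and the 1908 members above share 1417 genes.

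Some members had values that set them apart from the rest. The region at chr1:24612350-24613226, in an exon of Gm28438 and nearest Col19a1, stood at 35.8, 109, 72.6, 39.8 and 2.45 CPM in myonuclei and 33.2, 133, 62.5, 57.2 and 2.20 in other nuclei. Its KO to WT ratio in myonuclei was the lowest among members with at least 100 fragments, 0.0225 (0.00903 to 0.0466). Of the 31-base words in its central window, 91.5% also occur in the mitochondrial sequence of the assembly. Among 11637 members it was the only one with over 50% of such words, and 103 (0.885%) had most of their words at more than 1 place in the genome. Without these 103 and the mitochondrial-like region, an alternative chosen after seeing the data, none of the 41 values recomputed moved by over 1.5 times.

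Some of the highest levels belonged to regions that ran in parallel. The one nearest Gtpbp4 (chr13:9011280-9012378) stood at 379, 248, 579, 88.4 and 597 CPM in myonuclei and 675, 641, 1064, 151 and 859.7 in other nuclei. The one nearest Gm11670 (chr11:109011391-109012309) stood at 217, 118, 381, 58.5 and 492 CPM in myonuclei and 323, 263, 626, 101 and 776 in other nuclei, and was 4.18-fold (3.84 to 4.55) higher in KO than in WT E18.5 myonuclei. Regions nearest Gm20546, Cdk8, Gm37350, Ccdc3, Oxr1 and Gm31138 had the same order, highest in the KO, next at P5 and lowest in the adult, in myonuclei. They were grouped after their values were seen. Those nearest Ccdc3, Oxr1 and Gm31138 were not among the 8 highest levels of either class. They were named for KO to WT ratios among the 8 highest in myonuclei. A KO level above WT E18.5 thus follows from that choice. Repeats covered 63.97% of the Gtpbp4 region and 2.07% of the Gm11670 region. By contrast the regions nearest Fos, Zfp395 and Ccne1, also among the 8 highest in myonuclei, stayed at 117 to 157, 132 to 156 and 95.8 to 140 CPM there.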

How the data were processed

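Nuclei of 5 libraries, 1 per group, were measured by 10x Multiome. The authors deposited filtered matrices of raw counts per barcode, UMIs for gene rows and cut counts for peak rows, made per the processing notes with Cell Ranger ARC 2.0.0 on mm10, with peaks called in each library separately. About 83.1% to 84.5% of peak counts were even numbers, so 2 counts were taken as 1 fragment. A peak list with no common peak set means that a WT E18.5 region was matched to the overlapping peaks of each library, whose counts were summed.

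Nuclei were kept at 400 to 25000 UMIs, where no more than 10% of UMIs were mitochondrial and ATAC counts did not pass 70000 (3228 to 5108 per library). Doublets were not called separately beyond these upper limits. ATAC counts per library ran from 23592784 to 48510096 and UMIs from 21394846 to 49913899. Of 32285 gene rows, 13 had no position. CPM ratios carry exact conditional binomial 95% intervals on fragments. A region was called at 2-fold or more with an interval leaving out 1 and at least 20 fragments in both sums together, and cells were not used as replicates. PCR copies are not independent molecules, so intervals cover counting error only.

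Regions were named by rank: the 8 highest and 8 lowest ratios of each comparison in myonuclei and the 10 highest and lowest between classes, with at least 100 fragments, the 8 highest levels, the 8 most even, and up to 4 of each gene list by fragments. The members and lists were chosen with earlier results of these data known. Motif shares by stage and the count of repeated 31-base words were added after seeing the data. Positions came from GENCODE M21 and sequences from RefSeq GRCm38.p6, and 9 members had none. Scripts, in Python 3.11.15 with scipy 1.17.1 for intervals, pandas 2.3.3 and numpy 2.4.6, were tested on simulated data.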

Additional observations from a re-analysis of the deposited data

Results flagged for a closer look

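Some members moved at least 2-fold one way in myonuclei and the other way in other nuclei of the same pair of libraries. The difference between the classes was not tested, since each group is 1 library. From E14.5 to E18.5, 38 members were higher in myonuclei and lower in other nuclei and 5 the reverse, beside 180 higher in both and 136 lower in both. From E18.5 to P5 the counts were 3 and 5, from P5 to the adult 15 and 81, and between KO and WT at E18.5 3 and 1. In the order given, these are 0.329%, 0.0433%, 0.0261%, 0.0435%, 0.137%, 0.742%, 0.0263% and 0.00877% of members tested in both classes. Over all shared peaks the shares were 0.175%, 0.0159%, 0.0159%, 0.0191%, 0.0525%, 0.453%, 0.00960% and 0.0128%.

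The region nearest Eln, the elastin gene (chr5:134761397-134762259), went from 1.22 to 11.0 CPM in myonuclei between E14.5 and E18.5, a ratio of 9.01 (4.07 to 24.1), and from 25.7 to 8.23 in other nuclei, a ratio of 0.321 (0.244 to 0.420). A region nearest Gm11986 (chr11:7705093-7705985) went from 8.01 CPM at P5 to 0.970 in the adult in myonuclei and from 2.18 to 18.8 in other nuclei. An exonic region of St8sia4, a polysialic acid transferase (chr1:95618392-95619267), went from 17.4 to 2.60 CPM in myonuclei and from 0.961 to 5.47 in other nuclei over the same interval. The single member lower in KO myonuclei and higher in KO other nuclei, chosen for this after its values were seen, lay near Nudcd1, at 7.30 in WT and 2.63 CPM in KO myonuclei and 2.02 and 4.88 in other nuclei.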

How the results depend on the processing

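Of 517 values recomputed under other settings, 483 stayed within 1.5 times and 34 did not, and the cause of each move was not tested unless the setting itself shows it. No paired analysis was possible because each group is 1 library. In percent of members with enough fragments, a 4% gate in every library gave 3.48% higher in myonuclei and 4.74% higher in other nuclei from E14.5 to E18.5, 7.06% higher in KO myonuclei, 10.3% lower in myonuclei than in other nuclei of the KO, and 3.50% higher and 0.490% lower at E14.5. A minimum of 100 fragments gave 4.44% lower from E14.5 to E18.5 and 0.589% lower from E18.5 to P5 in other nuclei, 1.02% lower in KO myonuclei, 19.4% lower in adult myonuclei, and 10.9% (E14.5) and 17.4% (adult) lower in myonuclei than in other nuclei. Scaling to shared peaks gave 2.11% higher in KO myonuclei, 6.17% higher and 4.15% lower in KO other nuclei, and 1.43% higher and 1.88% lower in other nuclei from E18.5 to P5. Scaling to shared peaks within 1 kb gave 6.38% and 3.97% in KO other nuclei. Taking only nuclei under 0.5% (2% in the adult) as other nuclei gave 0.759% lower from E18.5 to P5. A distance of 50 kb left 3460 members, by construction with smaller shares of fragments: 3.70%, 3.52%, 3.87%, 2.81% and 4.07% in myonuclei of E14.5, E18.5, P5, adult and KO and 3.61%, 3.33%, 3.80%, 3.10% and 3.70% in other nuclei. It also gave 4.84% higher in KO myonuclei and 4.10% lower in KO other nuclei. Leaving out the adult gave 65.9% of members within 2-fold in myonuclei. KO myonuclei had the fewest fragments, 2852506.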
